A study of Mus musculus with 6 samples.

Results

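The 33 genes described here encode components of the basement membrane (BM) and were found by symbol among the 43274 genes of the deposited table. They comprise 10 laminin chains, 6 type IV collagen chains, collagens VII, XVII and XVIII, both nidogens, perlecan, agrin, the Fraser complex genes Fras1, Frem1 and Frem2, nephronectin (Npnt), Egfl6, netrin 4 (Ntn4), fibulins 1 and 2, and the plakins Dst and Plec. The plakins are cytoplasmic linkers, of which epithelial isoforms anchor keratin filaments at hemidesmosomes, and are no matrix proteins. RNA-seq was carried out on CD34+/α6 integrin-high bulge stem cells (SCs) of the hair follicle, sorted from mouse epidermis at P21, with 3 libraries per genotype. Control mice were heterozygous for the floxed Ilk allele and positive for K5-Cre (genotype label ILK +/-), and ILK-K5 mice were homozygous for it and likewise positive for K5-Cre (ILK -/-). Both genotypes therefore expressed Cre from the keratin 5 promoter, which is active in basal cells of the epidermis and hair follicle, and the control mice carried 1 Ilk allele that Cre can delete. The mice were on a mixed C57Bl6-129/Sv background with littermates as controls, but the animals behind each library, and any pooling of them, are not given. In both genotypes, library 1 carries another number in its labels than libraries 2 and 3, and the meaning of that number is not given.

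The BM is a thin sheet of extracellular matrix beneath epithelia. Laminin heterotrimers (LN, an α, a β and a γ chain) and type IV collagen form its networks, which nidogens and the heparan sulfate proteoglycans perlecan and agrin connect. In skin, LN-332 together with collagens XVII and VII anchors basal keratinocytes to the dermis, LN-511 is prominent around hair follicles, and bulge SCs deposit specialised components such as nephronectin, to which the arrector pili muscle attaches through α8β1 integrin. Integrin-linked kinase (ILK) connects β1 integrins to the actin cytoskeleton.

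Promoter windows from RefSeq (GRCm38.p6), running from 250 bases before to 50 bases after the annotated start, were matched for 24 of the 33 genes. Lama1, Lama3, Lama4, Lamc1, Lamc3, Col4a3, Nid2, Fras1 and Plec were the others. The windows below are printed 5′ to 3′. Col17a1 is shown as the gene with the highest level per length, Npnt and Egfl6 as abundant genes whose ILK-K5 libraries all lay below the control libraries, and the type IV collagen genes because they lie head to head in pairs whose chains are compared further down. Capitals mark the TATAAA matches in Col17a1 (chr19:47691993-47692292, minus strand) and the GC boxes (GGGCGG or its reverse complement) in Npnt (chr3:132950242-132950541, minus strand) and Egfl6 (chrX:166585667-166585966, minus strand).
Col17a1: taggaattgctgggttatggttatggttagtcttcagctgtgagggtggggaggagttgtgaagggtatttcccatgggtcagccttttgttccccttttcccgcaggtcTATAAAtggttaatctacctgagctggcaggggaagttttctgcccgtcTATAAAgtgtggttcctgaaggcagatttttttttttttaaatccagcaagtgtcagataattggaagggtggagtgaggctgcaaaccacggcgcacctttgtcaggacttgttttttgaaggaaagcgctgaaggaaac
Npnt: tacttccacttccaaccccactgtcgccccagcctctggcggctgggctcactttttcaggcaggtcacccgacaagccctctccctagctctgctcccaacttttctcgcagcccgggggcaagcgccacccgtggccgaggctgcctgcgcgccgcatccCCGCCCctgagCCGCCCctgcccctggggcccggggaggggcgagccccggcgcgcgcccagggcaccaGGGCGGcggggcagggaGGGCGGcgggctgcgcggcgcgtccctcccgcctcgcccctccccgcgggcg
Egfl6: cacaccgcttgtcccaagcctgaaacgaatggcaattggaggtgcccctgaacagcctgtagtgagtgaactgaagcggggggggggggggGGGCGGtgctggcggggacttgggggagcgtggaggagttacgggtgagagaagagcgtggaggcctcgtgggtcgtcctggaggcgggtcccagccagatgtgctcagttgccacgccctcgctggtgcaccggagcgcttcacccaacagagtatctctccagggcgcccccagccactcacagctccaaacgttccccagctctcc

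In the pair on chromosome 8, capitals mark the 78 bases that the windows of Col4a1 (chr8:11312777-11313076, minus strand) and Col4a2 (chr8:11312555-11312854, plus strand) have in common, each printed on its own strand. Their annotated starts overlap by 22 bases on opposite strands. In the Col4a4 window (chr1:82586800-82587099, minus strand) the capitals are the 71 bases between the starts of Col4a4 and of Col4a3, which is transcribed in the other direction. The starts of the pair on the X chromosome, Col4a6 and Col4a5, are separated by 1308 bases.
Col4a1: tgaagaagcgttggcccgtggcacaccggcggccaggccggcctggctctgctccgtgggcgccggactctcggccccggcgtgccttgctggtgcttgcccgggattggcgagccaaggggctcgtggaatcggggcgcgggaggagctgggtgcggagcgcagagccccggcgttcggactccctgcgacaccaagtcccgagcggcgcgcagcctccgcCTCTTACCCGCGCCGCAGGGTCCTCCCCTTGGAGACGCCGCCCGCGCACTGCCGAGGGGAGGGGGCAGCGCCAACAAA
Col4a2: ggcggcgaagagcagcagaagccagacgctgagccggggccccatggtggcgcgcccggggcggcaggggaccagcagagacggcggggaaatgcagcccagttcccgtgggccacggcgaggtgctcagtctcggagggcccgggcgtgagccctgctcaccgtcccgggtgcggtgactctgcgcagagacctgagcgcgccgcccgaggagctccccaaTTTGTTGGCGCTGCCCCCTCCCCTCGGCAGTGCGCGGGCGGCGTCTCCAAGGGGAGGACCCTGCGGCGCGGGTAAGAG
Col4a4: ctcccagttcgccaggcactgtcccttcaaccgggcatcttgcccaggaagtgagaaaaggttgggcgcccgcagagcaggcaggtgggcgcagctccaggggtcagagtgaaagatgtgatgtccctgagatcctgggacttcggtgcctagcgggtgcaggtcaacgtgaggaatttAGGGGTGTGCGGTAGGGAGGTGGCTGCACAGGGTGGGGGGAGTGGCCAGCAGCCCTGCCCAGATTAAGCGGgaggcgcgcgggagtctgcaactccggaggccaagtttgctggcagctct

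Counted on both strands, 17 of the 24 windows held a GC box, against 35.7% of the 32851 RefSeq windows of this length. The 24 windows were those starting nearest the annotated 5′ end of each gene, and no such choice was made among the 32851. A CCAAT box (CCAAT) was present in 11 of the 24, against 37.4% of all windows. A TATA box (TATAAA) was present in Col17a1, with 2 matches, and in none of the other windows, against 13.6% of all windows. The letters of an AP-1 site (TGANTCA) were in 0 of the 24 and in 7.81% of all windows. The Npnt window held 4 GC boxes and the Egfl6 window 1. Matches of different motifs can share bases, and a match describes the letters of a window only.

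Library depth ranged from 8228019 to 11969072 reads on genes. The 33 BM genes took between 0.418% and 0.822% of them (34427 to 86234 reads), and mitochondrial genes 11.5% to 27.6%. Markers of basal keratinocytes were abundant in every library, summing to between 43020 and 88545 normalized counts (reads divided by the library's size factor) in control and between 43760 and 65380 in ILK-K5 libraries. The ILK-K5 libraries also held macrophage markers, which summed to between 106 and 160 normalized counts in control and between 13695 and 20855 in ILK-K5 libraries. The count of Ilk (10.6, 16.7 and 38.5 normalized counts in control and 14.8, 30.9 and 29.2 in ILK-K5 libraries, in the order 1 to 3) did not serve to check the genotype, since 89.7% of its exon bases also lie in exons of Taf10 or Rrp8 on the opposite strand.

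In control bulge SCs, 3 genes made up most of the BM transcripts per length. Collagen XVII (Col17a1), the transmembrane collagen of hemidesmosomes, reached 406 ± 163 FPKM (SD, n = 3), EGF-like repeat protein Egfl6 reached 314 ± 155 FPKM, and nephronectin reached 112 ± 31.3 FPKM. They took 38.4%, 29.7% and 10.6% of the summed FPKM of the 33 genes. Next came the LN α3 chain (Lama3, 39.7 ± 6.77 FPKM), agrin (Agrn, 26.0 ± 7.36), the LN β3 chain (Lamb3, 23.4 ± 5.92), Dst (17.5 ± 9.18) and Frem2 (14.9 ± 9.94).

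Among the laminin chains, those of LN-332 were higher per length than those of LN-511. The LN-511 chains γ1 (Lamc1), α5 (Lama5) and β1 (Lamb1) had control levels of 6.12 ± 1.78, 2.99 ± 1.37 and 2.46 ± 0.877 FPKM, and β2 (Lamb2), the β chain of LN-521, 3.01 ± 0.273 FPKM. The other α chains were low, with 0.360 ± 0.0699 FPKM for α4 (Lama4), 0.342 ± 0.123 for α1 (Lama1) and 0.0388 ± 0.0196 for α2 (Lama2), the chain of muscle and nerve BMs. Of the type IV collagen chains, α2 (Col4a2, 13.2 ± 4.23 FPKM) and α1 (Col4a1, 8.32 ± 2.78) of the ubiquitous network stood above α6 (5.62 ± 3.66), α5 (4.87 ± 0.855), α4 (2.73 ± 1.53) and α3 (2.39 ± 0.578), but neighbours in this order overlapped.

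Among the components that connect the networks, perlecan and the nidogens lay below agrin, with 3.56 ± 1.25 FPKM for perlecan (Hspg2), 0.295 ± 0.0438 for nidogen 1 (Nid1) and 0.0590 ± 0.0378 for nidogen 2 (Nid2), whereas collagen XVIII (Col18a1), which also carries heparan sulfate, had 9.46 ± 1.19. The other levels were those of fibulin 1 (12.8 ± 4.25), plectin (9.37 ± 5.94), netrin 4 (7.68 ± 4.10), collagen VII of the anchoring fibrils (4.46 ± 1.20), fibulin 2 (1.58 ± 0.634), Fras1 (0.817 ± 0.521) and Frem1 (0.354 ± 0.223). Lamc3, the LN γ3 chain, was at 0 or 1 read in each control library and at 1 to 3 reads in each ILK-K5 library. When the 33 control means were ordered, only Npnt and Lama3, Nid1 and Nid2, and Lama2 and Lamc3 were neighbours whose 3 control libraries did not overlap. In ILK-K5 bulge SCs Col17a1, Egfl6, Npnt and Lama3 kept ranks 1 to 4 with 308 ± 53.3, 117 ± 14.5, 42.1 ± 11.3 and 40.3 ± 4.87 FPKM. Ntn4 stood at rank 14 in control and rank 5 in ILK-K5, and Frem2 at rank 8 and rank 16.

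**Figure D1:**
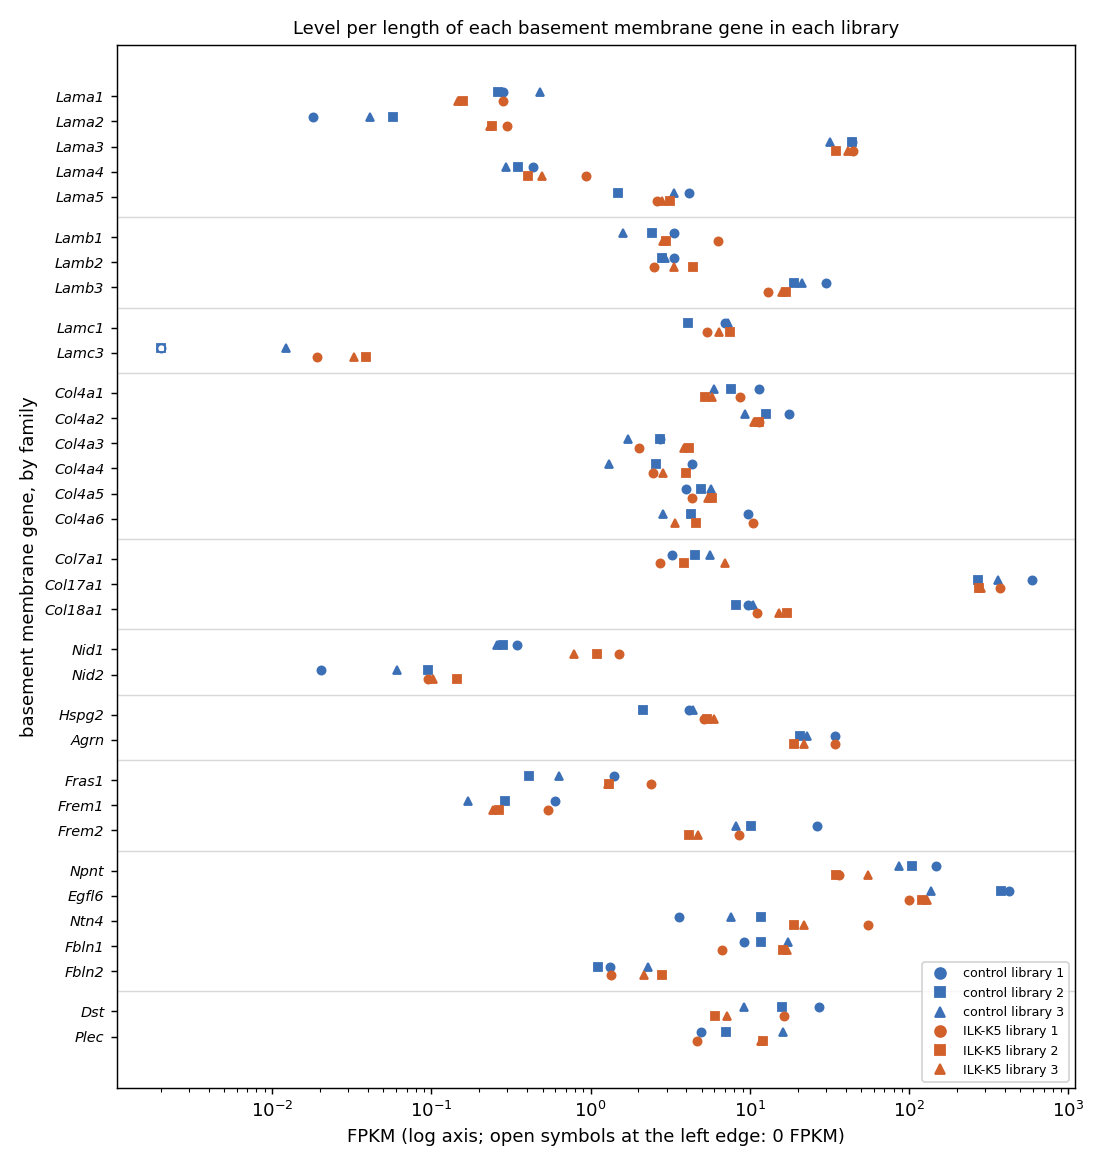
Level per length (FPKM, log axis) of the 33 BM genes, grouped by family, with 1 symbol per library (blue, control; orange, ILK-K5; shapes give the library number; open symbols at the left edge are 0 FPKM). Col17a1 and Egfl6 lie highest, Lama2, Nid2 and Lamc3 lowest, and for most genes the symbols of the genotypes are intermixed.

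The comparison of genotypes asks which BM transcripts of the bulge SCs differed when ILK was deleted. Of the 31 BM genes that passed the filter of a mean of at least 10 normalized counts (Lamc3 and Nid2 did not), nephronectin fell in ILK-K5 bulge SCs and none rose at a limma p, adjusted by Benjamini-Hochberg over all 16368 genes tested, of at most 0.05. Over all genes tested, 0.599% were called lower and 2.93% higher. At an unadjusted p under 0.05 there were 4 BM genes with higher values (Lama2, Nid1, Ntn4 and Fras1) and 3 with lower values (Npnt, Egfl6 and Frem2), where 8.18% and 4.11% of all genes lay. The median log2 fold change of the 31 genes was 0.08, against 0.0054 over all genes, with 20 above 0 and 11 below. The libraries of the genotypes did not overlap for 5 tested BM genes that were higher in ILK-K5 (Lama2, Ntn4, Nid1, Hspg2 and Col18a1) and 3 that were lower (Npnt, Egfl6 and Lamb3), against 10.9% and 6.95% of all genes. Thus 30 of the 31 genes did not pass the adjusted test, and the values of the genes that separated ran in both directions.

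The number of calls depended on the test. Within libraries 2 and 3 alone, which share their number in the labels, 0 BM genes were called, where 2.47% of all genes were called higher and 0.434% lower. edgeR on the recovered reads likewise called 0 BM genes, where 422 of 16368 genes were called higher and 87 lower. DESeq2 on the same reads called Lama2, Nid1 and Ntn4 higher and Npnt and Egfl6 lower, where 3.86% and 1.31% of all genes were called. With the number in the labels as a term, limma called Lama2, Nid1, Ntn4 and Fras1 higher and Npnt and Frem2 lower, where 5.17% and 1.75% of all genes were called.

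**Figure D2:**
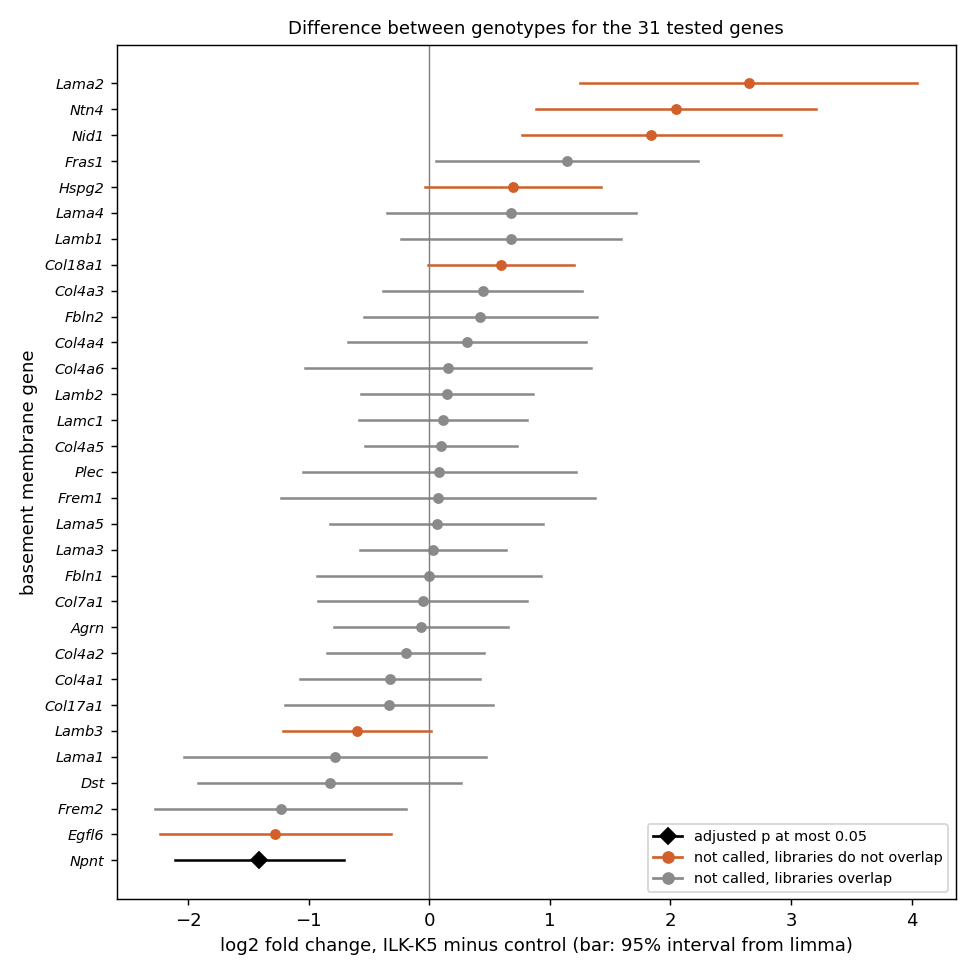
Log2 fold change (ILK-K5 minus control, horizontal axis) of the 31 tested BM genes, each with its 95% interval from limma. Npnt (black, adjusted p = 0.0413) is the 1 gene called, orange marks 7 others without overlap of the genotypes, and the intervals of most genes in grey cross 0.

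Nephronectin is a secreted ligand of α8β1 integrin. Npnt (ENSMUSG00000040998, minus strand of chromosome 3, 132881745 to 132950291 in GRCm38) had 7194, 5080 and 4211 normalized counts in control and 1770, 1714 and 2701 in ILK-K5 libraries 1 to 3. Every ILK-K5 library lay below every control library. Npnt fell by 1.41 on the log2 scale (SE 0.31, 95% interval -2.11 to -0.71, adjusted p = 0.0413), so that the control level was 2.66 times the ILK-K5 level. The call was close to the threshold and was lost when any library other than control library 3 was left out (adjusted p from 0.0737 to 0.207). Within libraries 2 and 3 alone the log2 fold change was -1.10 (adjusted p = 0.202).

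Egfl6, a relative of nephronectin that is secreted by bulge cells, was also lower in each ILK-K5 library. Egfl6 (X chromosome, 166523007 to 166585720, minus strand) had 11218, 10005 and 3611 normalized counts in control and 2652, 3171 and 3399 in ILK-K5 libraries 1 to 3. Control library 3 lay just above the ILK-K5 libraries and the other control libraries far above them. The log2 fold change was -1.28 (SE 0.43, adjusted p = 0.202). Without control library 3 it was -1.79 (adjusted p = 0.00948), and within libraries 2 and 3 alone -0.87 (adjusted p = 0.577).

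α8 integrin, the receptor chain for nephronectin and Egfl6, went the other way in its values, at a low level. Itga8 had 18.3, 10.6 and 10.2 normalized counts in control and 50.1, 42.4 and 47.7 in ILK-K5 libraries 1 to 3. The genotypes did not overlap, but the difference did not pass the test (log2 fold change 1.81, adjusted p = 0.112). It passed with the number in the labels as a term (adjusted p = 0.0411) and with DESeq2 (adjusted p = 0.0480). This gene and the genes Frem2, Fras1, Frem1, Dst, Plec and Col4a6 in the following were singled out after their values were seen.

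The Fraser complex, in which Fras1, Frem1 and Frem2 proteins stabilise each other at the BM, showed opposite values for its members. Frem2 had 3165, 1216 and 985 normalized counts in control and 1033, 498 and 568 in ILK-K5 libraries 1 to 3 (log2 fold change -1.23, SE 0.46, adjusted p = 0.277). Fras1 had 217, 63.9 and 98.0 in control and 372, 203 and 198 in ILK-K5 libraries (log2 fold change 1.14, SE 0.48, adjusted p = 0.359). In both genes, library 1 was the highest of its genotype, and control library 1 of Fras1 and ILK-K5 library 1 of Frem2 caused the overlap between genotypes. Within libraries 2 and 3 alone the genotypes did not overlap for either gene, with log2 fold changes of -1.04 for Frem2 (adjusted p = 0.124) and 1.33 for Fras1 (adjusted p = 0.155). Frem1 was low in both genotypes (48.3 ± 30.3 normalized counts in control, 47.8 ± 22.8 in ILK-K5, SD, n = 3), with a 95% interval of the log2 fold change from -1.23 to 1.38.

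The chains of LN-332 were abundant in both genotypes. Lama3 had 4563, 4584 and 3344 normalized counts in control and 4656, 3661 and 4352 in ILK-K5 libraries 1 to 3. These values were intermixed, with a log2 fold change of 0.03 and a 95% interval from -0.58 to 0.63. Lamb3 had 1941, 1213 and 1378 normalized counts in control and 842, 1087 and 1020 in ILK-K5 libraries. Every ILK-K5 library lay below every control library, by a narrow gap, and the difference did not pass the test (log2 fold change -0.60, SE 0.27, adjusted p = 0.424). Within libraries 2 and 3 alone it was -0.30 (adjusted p = 0.748).

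The chains of LN-511 did not pass the test. Lama5 had 460, 164 and 371 normalized counts in control and 291, 352 and 313 in ILK-K5 libraries 1 to 3. Lamc1 had 565, 328 and 588 in control and 437, 609 and 519 in ILK-K5 libraries. For both, control library 2 was the lowest of all and the ILK-K5 libraries lay within or close to the control range, with 95% intervals of the log2 fold change from -0.82 to 0.95 and from -0.58 to 0.81. Lamb1 had 324, 236 and 155 in control and 609, 290 and 276 in ILK-K5 libraries, so that ILK-K5 libraries 2 and 3 lay below control library 1 (log2 fold change 0.68, adjusted p = 0.624). Lamb2 had 197, 166 and 173 in control and 149, 260 and 199 in ILK-K5 libraries (log2 fold change 0.15, adjusted p = 0.933).

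Chains were also compared with each other within a library, where the size factor matters little unless counts are low. For this, 7 ratios were compared by a two-sided exact permutation test over the 6 libraries, which allows no p below 0.1. The Lamb1 to Lamb3 ratio of normalized counts, each plus 1, was -2.58, -2.36 and -3.15 on the log2 scale in control and -0.47, -1.90 and -1.88 in ILK-K5 libraries 1 to 3. The Lamb2 to Lamb3 ratio was -3.30, -2.86 and -2.98 in control and -2.49, -2.06 and -2.35 in ILK-K5 libraries. In both ratios all ILK-K5 libraries lay above all control libraries, by means of 1.28 and 0.75, and both gave exact permutation p = 0.1, the smallest possible, and 0.35 after Benjamini-Hochberg adjustment over the 7 ratios. The ratio of the α chains, Lama5 to Lama3, was intermixed between genotypes (difference 0.04, exact permutation p = 1). The β chains of LN-511 and LN-521 were thus higher relative to β3 in each ILK-K5 library, whereas no such separation was seen for the α chains. Both ratios share Lamb3 and are not independent. Lamb3 itself was lower in every ILK-K5 library, whereas Lamb1 and Lamb2 each overlapped between genotypes.

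**Figure D3:**
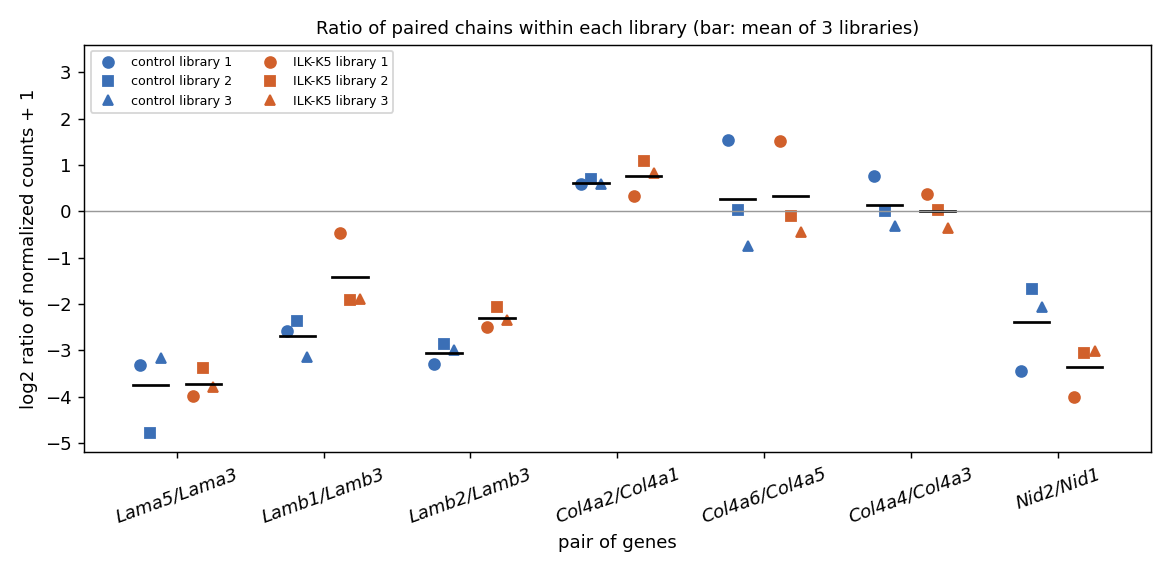
Log2 ratio of normalized counts (each plus 1) for 7 pairs of genes, with 1 symbol per library and a bar for the mean of 3 libraries (blue, control; orange, ILK-K5). The genotypes separate for Lamb1/Lamb3 and Lamb2/Lamb3 and overlap for the other 5 pairs, and Col4a6/Col4a5 runs from 1.54 in control library 1 to -0.75 in control library 3.

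Lama2 and nidogen 1 were low genes with higher values in ILK-K5 libraries. Lama2 (chromosome 10, 26980036 to 27619758, minus strand) had 2.89, 9.12 and 6.53 normalized counts in control and 47.8, 38.6 and 37.0 in ILK-K5 libraries 1 to 3, which is 3, 6 and 9 reads against 42, 50 and 38. Its control mean of 6.18 lay below the filter of 10, which Lama2 passed through its ILK-K5 mean of 41.1. Nid1 (chromosome 13, 13437551 to 13512269, plus strand) had 20.3, 16.7 and 15.2 in control and 88.8, 64.8 and 46.8 in ILK-K5 libraries. Both were separated between genotypes by a wide gap, and both missed the threshold, with log2 fold changes of 2.65 (SE 0.62, adjusted p = 0.0542) and 1.84 (SE 0.48, adjusted p = 0.0787). Within libraries 2 and 3 alone the log2 fold changes were 2.15 (adjusted p = 0.140) and 1.72 (adjusted p = 0.190). The summed fibroblast markers ranged from 703 to 781 normalized counts in control and from 1547 to 2525 in ILK-K5 libraries, and their part in these values was not tested. Nidogen 2 was at 1 to 4 reads in control and 4 to 9 reads in ILK-K5 libraries, and its ratio to Nid1 overlapped between genotypes (exact permutation p = 0.3).

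Netrin 4, a short laminin-like protein that binds LN γ1 and opposes laminin polymerisation, had 1 ILK-K5 library well above the others. Ntn4 (chromosome 10, 93640681 to 93747207, plus strand) had 131, 430 and 279 normalized counts in control and 2024, 693 and 803 in ILK-K5 libraries 1 to 3. All ILK-K5 libraries lay above the control libraries, and libraries numbered 1 were the lowest of the control and the highest of the ILK-K5 libraries. The log2 fold change was 2.05 (SE 0.52, adjusted p = 0.0705) over all libraries and 1.10 (adjusted p = 0.161) within libraries 2 and 3.

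Perlecan and collagen XVIII, both carriers of heparan sulfate, had modestly higher values in ILK-K5 libraries. Hspg2 had 582, 297 and 612 normalized counts in control and 724, 754 and 826 in ILK-K5 libraries 1 to 3 (log2 fold change 0.70, SE 0.32, adjusted p = 0.441). Col18a1 had 668, 558 and 717 in control and 759, 1168 and 1046 in ILK-K5 libraries (log2 fold change 0.60, SE 0.27, adjusted p = 0.415). The genotypes did not overlap for either gene, and neither difference passed the test. Agrin, the third heparan sulfate proteoglycan, had 3113, 1879 and 2061 in control and 3091, 1713 and 1974 in ILK-K5 libraries. The agrin values of the genotypes were intermixed, and the log2 fold change was -0.07 with a 95% interval from -0.79 to 0.65.

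**Figure D4:**
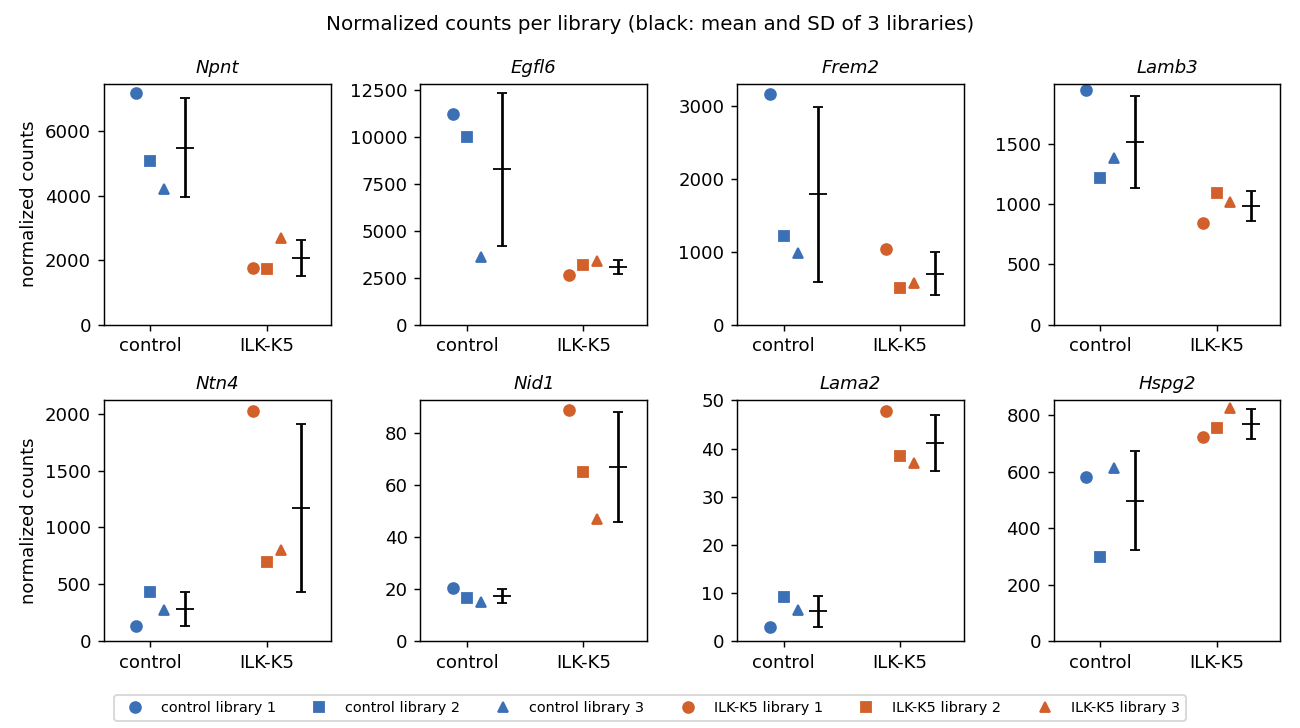
Normalized counts (vertical axes from 0) of 8 BM genes in each library, with the mean and SD of 3 libraries per genotype in black. In the upper row Npnt, Egfl6 and Lamb3 lie lower in all ILK-K5 libraries and Frem2 overlaps, and in the lower row Ntn4, Nid1, Lama2 and Hspg2 lie higher in all ILK-K5 libraries.

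The type IV collagen genes did not pass the test, with log2 fold changes between -0.33 (Col4a1) and 0.44 (Col4a3). The Col4a2 to Col4a1 ratio, of the genes that share 78 bases of their windows above, was 0.59, 0.69 and 0.59 on the log2 scale in control and 0.34, 1.09 and 0.84 in ILK-K5 libraries 1 to 3. It was nearly equal in the control libraries and more spread in the ILK-K5 libraries, and the genotypes overlapped (exact permutation p = 0.7). The Col4a4 to Col4a3 ratio was 0.76, 0.01 and -0.32 in control and 0.38, 0.03 and -0.35 in ILK-K5 libraries. Here and in the Col4a6 to Col4a5 ratio (1.54, 0.03 and -0.75 in control, 1.51, -0.10 and -0.43 in ILK-K5 libraries) the spread lay between libraries within each genotype. Col4a6 itself, with 759, 331 and 221 normalized counts in control and 809, 357 and 265 in ILK-K5 libraries, was more than 2 times as high in library 1 as in libraries 2 and 3 of either genotype.

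Col17a1 had 33024, 15228 and 20249 normalized counts in control and 20785, 15391 and 15818 in ILK-K5 libraries 1 to 3. Control library 1 stood above the rest and the other values were intermixed (log2 fold change -0.34, 95% interval -1.20 to 0.53, adjusted p = 0.853). Collagen VII, the anchoring fibril collagen, had a log2 fold change of -0.05 with an interval from -0.92 to 0.81. Of the plakins, Dst had 10364, 5993 and 3493 in control and 6238, 2293 and 2731 in ILK-K5 libraries (log2 fold change -0.82, adjusted p = 0.613). Plec had 866, 1254 and 2845 in control and 821, 2142 and 2090 in ILK-K5 libraries (log2 fold change 0.08, adjusted p = 0.978). Dst was thus highest and Plec lowest in library 1 of both genotypes.

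The remaining genes overlapped between the genotypes. Fibulin 1 had means of 544 ± 181 normalized counts in control and 570 ± 246 in ILK-K5 libraries, and fibulin 2 of 90.7 ± 36.3 and 121 ± 42.4. Lama4 had means of 42.3 ± 8.23 and 72.2 ± 33.5, with a log2 fold change of 0.68. Lama1 had means of 31.8 ± 11.5 and 18.2 ± 6.97, with a log2 fold change of -0.78. None of these 4 passed the test (adjusted p of 0.696 or above). Spread between replicates was wide for several BM genes, with coefficients of variation in control libraries from 9.06% (Lamb2) to 66.9% (Frem2) among tested genes. In 4 of the 31 genes (12.9%), library 1 differed from the mean of libraries 2 and 3 by more than 1 on the log2 scale in the same direction in both genotypes, against 15.3% of all genes tested.

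Of 56 other genes of BM matrix, receptors and matrix assembly, 49 were tested, 3 rose in ILK-K5 libraries and none fell, against the 2.93% and 0.599% of all genes. Among the 13 tested matrix genes these were fibronectin and Smoc2, and among the 17 tested receptor and hemidesmosome genes α9 integrin. Fn1, which encodes fibronectin, had 135, 73 and 318 reads in control and 2898, 3560 and 1939 in ILK-K5 libraries 1 to 3, or means of 157 ± 64.3 and 2645 ± 711 normalized counts (SD, n = 3, log2 fold change 4.10, SE 0.35, adjusted p = 3.68e-04). Smoc2, a secreted calcium-binding matrix protein, had 303, 274 and 427 normalized counts in control and 1060, 1296 and 831 in ILK-K5 libraries (log2 fold change 1.67, SE 0.29, adjusted p = 0.0140). Itga9, a receptor chain for fibronectin splice forms and tenascin, had 17.4, 1.52 and 10.2 normalized counts in control and 176, 126 and 106 in ILK-K5 libraries (log2 fold change 4.07, SE 0.73, adjusted p = 0.0166). Its control mean of 9.68 lay below the filter of 10, which Itga9 passed through its ILK-K5 mean of 136. All 3 were separated between genotypes without overlap, and within libraries 2 and 3 alone the log2 fold change of Fn1 was 3.82 (adjusted p = 0.00571) and that of Itga9 4.46 (adjusted p = 0.0332), whereas Smoc2 was not called (adjusted p = 0.0738). Fn1 was called whichever library was left out, Itga9 was not called without any 1 of the ILK-K5 libraries, and Smoc2 was not called without control library 2, ILK-K5 library 1 or ILK-K5 library 2 (adjusted p up to 0.0795 and 0.0897). None of the 19 tested genes of collagen modification, crosslinking and processing passed the test.

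Some markers of other cell types also differed between the genotypes in the same libraries. Only the macrophage and fibroblast lists had sums without overlap between genotypes. All 13 macrophage markers were called higher in ILK-K5 libraries, and 1 of them was at 0 reads in every control library. C1qa, C1qb, C1qc, Cd14, Mrc1, Fcgr1 and Aif1 had control means below the filter of 10, from 0 for Fcgr1 to 3.49 for Mrc1. They passed the filter through their ILK-K5 means, so their being tested depended on the higher group. Adgre1, Cd68, Csf1r, Lyz2, Tyrobp and Ctss had control means of 10.4 or above. Of the fibroblast markers, whose sums did not overlap between genotypes, 2 of 5 tested genes, Col3a1 and Dpt, were called higher, with Lum at 0 reads in every control library. The control mean of Dpt was 0.726, below the filter, which Dpt passed through its ILK-K5 mean of 27.3. Col1a1, Col1a2 and Col3a1 made up most of the sums. Col1a1 and Col1a2 were higher without overlap but not called (limma adjusted p = 0.141 and 0.409). Dcn overlapped (log2 fold change 0.61, limma adjusted p = 0.852). Pdgfra, which was not tested, also overlapped, with 13, 1 and 8 reads in control and 11, 3 and 10 in ILK-K5 libraries. Endothelial markers summed to between 152 and 275 in control and between 145 and 159 in ILK-K5 libraries, with 0 of 3 tested genes called. Of these 3, Tek was lower without overlap, with 54.0, 41.1 and 22.5 normalized counts in control and 5.69, 11.6 and 8.77 in ILK-K5 libraries. The adjusted p of Tek was 0.144 with limma and 0.0467 with DESeq2. Tek passed the filter of 10 through its control mean of 39.2, with an ILK-K5 mean of 8.68. In 1 of the 3, Pecam1, the log2 fold change was above 0 (0.68). Of the pericyte and smooth muscle markers, whose sums (429 to 797 and 484 to 800) consisted mostly of Cspg4 counts, 0 of 3 tested genes were called, but the genotypes did not overlap for Acta2 and Pdgfrb. Acta2 had 37.6, 4.56 and 25.4 normalized counts in control and 71.7, 119 and 100.3 in ILK-K5 libraries (adjusted p = 0.129 with limma and 0.0260 with DESeq2). Pdgfrb had 0, 0 and 1.45 in control and 19.4, 27.8 and 12.7 in ILK-K5 libraries (adjusted p = 0.0519 with limma, 0.0442 with edgeR and 0.00978 with DESeq2). Its control mean of 0.484 lay below the filter of 10, which Pdgfrb passed through its ILK-K5 mean of 19.9. Summed levels of dermal papilla markers (103 to 124 and 44.4 to 158), of melanocyte markers (83.6 to 173 and 77.1 to 224) and of Schwann cell markers (22.8 to 73.3 and 56.3 to 72.9) overlapped between genotypes. Tyrp1, a melanocyte marker, was higher without overlap (2.89, 0 and 5.08 normalized counts in control, 34.2, 11.6 and 48.7 in ILK-K5 libraries). Its adjusted p was 0.119 with limma and 0.0142 with DESeq2. Tyrp1 passed the filter of 10 through its ILK-K5 mean of 31.5, with a control mean of 2.66. The melanocyte markers Dct, Pmel and Tyr overlapped. Hhip, a dermal papilla marker, was lower without overlap (71.4, 66.9 and 13.1 normalized counts in control, 5.69, 6.94 and 7.79 in ILK-K5 libraries). The adjusted p of Hhip was 0.159 with limma and 0.00758 with DESeq2. Hhip passed the filter of 10 through its control mean of 50.5, with an ILK-K5 mean of 6.81. Rspo3, which was not tested, was at 8, 2 and 38 reads in control and 0, 0 and 1 in ILK-K5 libraries. Crabp1, the other tested dermal papilla marker, overlapped, with a log2 fold change of 1.42. The part of macrophages, fibroblasts and pericytes in the higher values of Lama2, Nid1, Ntn4, Fn1, Smoc2 and Itga9 was not tested. Bulge SC markers summed to between 42883 and 106671 in control and between 19928 and 46421 in ILK-K5 libraries, and 1 of the 6, Cd34, was called lower (log2 fold change -1.90, adjusted p = 0.0239). These sums consisted mostly of Krt15 counts, which overlapped between genotypes (log2 fold change -1.16, limma adjusted p = 0.552). Lhx2, Lgr5 and Sox9 also overlapped, with log2 fold changes of -0.10, -0.05 and 0.26. Nfatc1 was lower without overlap but was not called (log2 fold change -0.60, limma adjusted p = 0.411). Markers of differentiated keratinocytes summed to between 3050 and 17051 in control and between 4058 and 6745 in ILK-K5 libraries, with loricrin (Lor) called lower. Krt10 was lower without overlap but was not called (log2 fold change -1.18, limma adjusted p = 0.354). Krt1, Krtdap, Sbsn and Ivl overlapped between genotypes. The part of bulge SCs and differentiated keratinocytes in the lower values of Npnt and Egfl6 was likewise not tested. In sorted bulk samples, fewer cells of a type and less RNA per cell cannot be told apart.

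**Figure D5:**
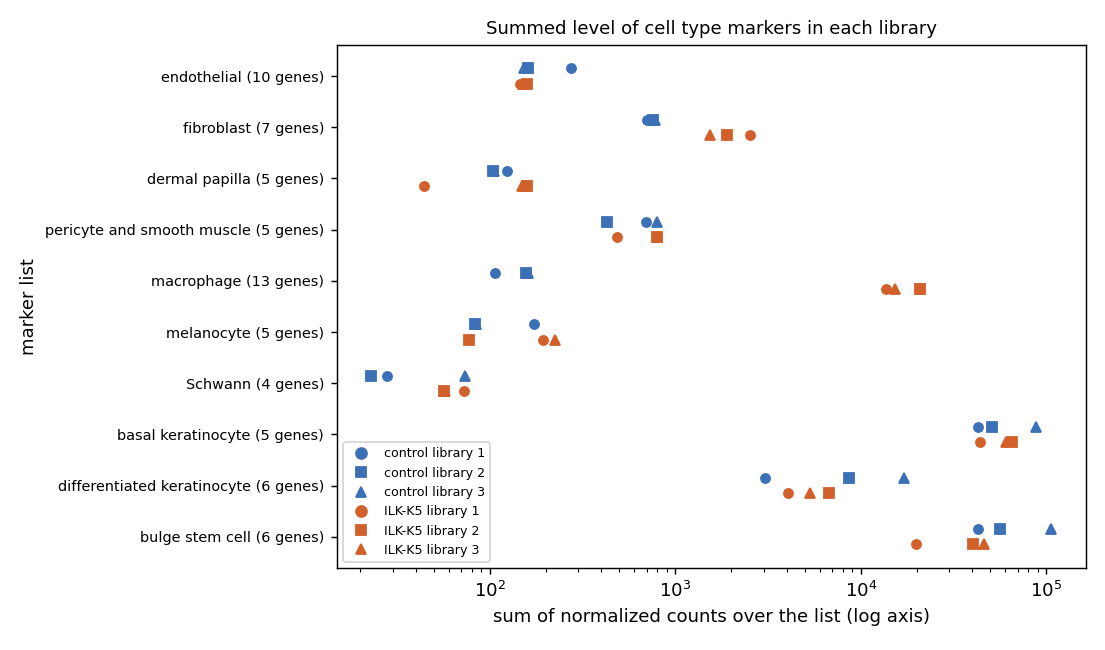
Sum of normalized counts (log axis) over each list of cell type markers in each library (blue, control; orange, ILK-K5). Macrophage and fibroblast sums lie higher in all ILK-K5 than in all control libraries, endothelial, dermal papilla, pericyte and smooth muscle sums overlap, and the sums for basal keratinocytes are at similar levels.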

How the data were processed

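RNA-seq of sorted bulge SCs was analysed from 6 libraries. Per the labels, cells were sorted into TRIzol LS, and cDNA was amplified with the Ovation system and made into Nextera XT libraries, which the study sequenced in pairs. The authors aligned reads to GRCm38 with TopHat2 2.0.14 and Bowtie2 2.2.4, and computed size factors with DESeq2 1.6.3. The read counter, and whether strand was used, are not given in the sources used here. The signal in the deposited normalized table was each gene's reads over the size factor: 100% of values came out as whole reads within a tolerance of 0.01. The FPKM values deposited by the authors equalled this signal times 1 constant per gene. No values of the authors' own comparison (means, fold changes, standard errors, statistics and p-values) were used.

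Genotypes were compared with limma 3.58.1 (lmFit, eBayes with trend) in R 4.3.3 on log2(normalized count + 1), a scale that understates the change of low genes, for 16368 genes whose mean normalized count was 10 or more, without a block. The filter used the mean over all 6 libraries, so a gene low in 1 genotype could pass it through the other. Genes were called at a two-sided Benjamini-Hochberg adjusted p of at most 0.05. Fold changes, standard errors and 95% intervals come from this fit. It was also run on simulated counts with large changes only and without an effect of the library number. That run is therefore no check for smaller changes or for such an effect. Chain ratios were compared by exact permutation. Alternatives were pseudocounts of 0.1 and 5, other filters, quantile and TMM scaling, FPKM, edgeR 4.0.16 and DESeq2 1.42.0 on the recovered reads, a replicate block, a term for the number in the labels, libraries 2 and 3 only, and leaving out each library. Replicates are separate samples in the labels, but separate animals are not stated, so p-values measure the spread between these libraries, which may be technical in part. Values rest on read counting and cDNA amplification without molecular identifiers.

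Symbols, coordinates and exons came from GENCODE M21 for GRCm38 (42107 of 43274 genes matched), and exons of BM genes shared at most 8.45% of bases with other genes, so that reads there cannot be told apart. Values in every library are given for genes called or separated between genotypes, for LN-332 and LN-511 chains and for the 5 genes with the highest control FPKM. The BM genes, the other lists and the tests were chosen with earlier results of these data known. Plots were drawn with matplotlib 3.10.9 from tables made with pandas 2.3.3.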

Additional observations from a re-analysis of the deposited data

How the results depend on the processing

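The 31 tested BM genes were refitted under 12 alternatives with all replicates or replicates 2 and 3 and under 6 that left out a library. Of the 368 values with a test under the former, 336 kept direction and side of the threshold, 16 newly passed it, 4 (all Npnt) no longer passed and 12 reversed, and of the 186 under the latter, 152, 1, 5 and 28. BM genes called higher numbered 1 with a pseudocount of 5 (Lama2) and 1 with no filter (Ntn4), 3 by DESeq2 (Lama2, Nid1 and Ntn4), and 4 with the number term in the labels (those and Fras1). BM genes called lower numbered 0 with a pseudocount of 0.1, with FPKM, with edgeR and in replicates 2 and 3, 2 by DESeq2 (Npnt and Egfl6), 2 with the number term (Npnt and Frem2), and 0 to 2 when a library was left out, while 0 were called higher. For Npnt the adjusted p was 0.0533 with a pseudocount of 0.1, 0.0731 with FPKM, 0.0579 with edgeR and 0.00325 with DESeq2. Over all genes, 555 higher and 106 lower were called with a pseudocount of 5, 509 and 101 with no filter, 355 and 69 with a pseudocount of 0.1, 456 and 69 with FPKM, 782 and 266 by DESeq2, 422 and 87 by edgeR, 846 and 286 with the number term, and 222 to 559 and 32 to 98 without 1 library. The genes tested numbered 34213 with no filter, 20255 by DESeq2 and 16368 in the others listed here. Other BM genes called higher were 5 with the number term and 1 to 3 without 1 library, with 0 to 1 lower. The lowest counts, 222 to 310 higher and 32 to 41 lower, were those without control library 2 or any 1 of the ILK-K5 libraries. The cause of these changes was not tested.

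With the replicate number as a block, 848 of 16368 genes were called higher and 269 lower. Among them were 4 BM genes higher (Lama2, Nid1, Ntn4 and Fras1) and 2 lower (Npnt and Frem2), and 5 other BM genes higher. Deviations of same-numbered libraries from their genotype means correlated by 0.53, 0.020 and 0.31 for numbers 1 to 3, and control library 2 correlated best with ILK-K5 library 3 (0.074) and control library 3 with ILK-K5 library 2 (0.50), so the numbers were not taken to pair the libraries.

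Reversed values with all libraries or replicates 2 and 3 were below 0.1 in size. Under quantile normalization these were Lama5 (-0.012), Agrn (0.014), Frem1 (-0.076) and Fbln1 (-0.022), under edgeR Lama5 (-0.067), Col7a1 (0.012) and Frem1 (-0.016), under DESeq2 Lama5 (-0.061), Col7a1 (0.018) and Frem1 (-0.018), and in replicates 2 and 3 Col4a2 (0.029) and Col7a1 (0.043). Without 1 library, log2 fold changes ranged from -0.12 to 0.13 for Lama3, -0.38 to 0.36 for Lama5, -0.049 to 0.35 for Lamb2, -0.16 to 0.26 for Lamc1, -0.42 to 0.042 for Col4a2, -0.14 to 0.73 for Col4a4, -0.036 to 0.23 for Col4a5, -0.31 to 0.65 for Col4a6, -0.42 to 0.25 for Col7a1, -0.32 to 0.15 for Agrn, -0.34 to 0.54 for Frem1, -0.24 to 0.44 for Fbln1 and -0.29 to 0.57 for Plec. Ratio differences ranged from -0.48 to 0.33 for Lama5 to Lama3, 0.80 to 1.52 for Lamb1 to Lamb3, 0.62 to 0.84 for Lamb2 to Lamb3, -0.034 to 0.34 for Col4a2 to Col4a1, -0.54 to 0.69 for Col4a6 to Col4a5, -0.36 to 0.17 for Col4a4 to Col4a3 and -1.50 to -0.62 for Nid2 to Nid1. At most 3 reads in each control library leave the change of Lamc3 unmeasured, and a p of 0.1 is the lowest that 3 against 3 libraries allow for a ratio.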
